A study of Mus musculus with 71 samples.

Results

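In mouse ventral spinal cord progenitors made from embryonic stem cells, 3047 of 155738 intervals of open chromatin, 1.96% of those counted, were selected on measured values: they were less accessible in NFIA-positive (NFIAp) than in NFIA-negative (NFIAn) wild-type (WT) p2 progenitors on day 9 and differed little between the same fractions of pMN. An interval entered when the NFIAp group mean of log2(value + 5) lay at least 1 below the NFIAn group mean in p2, and within 0.3 of it, in either direction, in pMN. The value is the read count of an interval divided by a size factor of its library, called normalised reads here. The rule used 10 libraries: NFIAp replicates 1 and 3 and 3 NFIAn replicates of p2, and 3 NFIAp and 2 NFIAn replicates of pMN. The other 60 of the 70 libraries analysed played no part in the choice.

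Progenitors of the ventral neural tube are arranged in domains set by Sonic hedgehog signalling. The p0 and p1 domains give rise to commissural and inhibitory interneurons, p2 to V2 interneurons, and the Olig2-expressing pMN domain to motor neurons and later to oligodendrocyte precursors. NFIA is a DNA-binding factor of the nuclear factor I family that appears in these progenitors as they pass from making neurons to making glia, and its presence is used as a marker of that transition. In ATAC-seq a transposase inserts sequencing adapters where DNA is free of nucleosomes, so the reads of an interval measure how open it is. Enhancers that are active in a given domain or at a given stage are usually open there, which makes such intervals a record of the regulatory state of the cells.

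The study compared progenitors of 2 genotypes, WT and MUT, and which gene is mutated is not told by the labels. Cells of both genotypes were differentiated in N2B27 medium with bFGF, a pulse of the WNT agonist CHIR, then retinoic acid with the Smoothened agonist SAG and SAG without retinoic acid afterwards. They were fixed, transposed, stained for intracellular markers, and p0-p1, p2 and pMN cells were sorted on days 5, 7, 9 and 11. All MUT libraries are NFIAn, with 3 replicates per population on days 5, 7 and 11 and 2 on day 9. WT libraries are NFIAn on day 5 (2 per population), on day 7 (3 per population) and on day 9 (3 of p0-p1, 3 of p2, 2 of pMN). WT NFIAp libraries come from p2 and pMN on day 9 (3 each) and from all populations on day 11 (3 each). There are therefore 33 MUT and 38 WT libraries in 26 groups. Day and NFIA fraction change together in WT between days 7 and 11, and genotype and NFIA fraction change together in any comparison of MUT with WT on day 11. The labels do not tell whether replicates are separate cultures. The p-values therefore rest on the differences among the libraries as they are, and part of that spread may be technical.

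Libraries held 20034731 to 31315134 reads in the counted intervals, with a median of 24375871. The median over the 3047 regions of the mean over libraries was 49.1 normalised reads, with an interquartile range of 22.8 to 118, against 31.9 over all intervals. 3 libraries stand apart from their labels. Replicate 2 of WT day 9 NFIAp p2 was left out by the rule and from the fits reported here. In 5 intervals with at most 1 read in 32 of 33 MUT libraries and 148 to 519 reads in 37 of 38 WT libraries, the library labelled MUT D7 pMN replicate 3 had 213 reads and the library labelled WT D7 pMN replicate 3 had 0. Leaving out both moved no count of calls by over 1.5 times, and the counts without the WT one stand beside each comparison that uses it. Other values that use day 7 pMN include these libraries: medians, days of the highest group mean, shared lists and named regions. The populations are sorted in bulk, so fewer cells with an open site and less open chromatin per cell cannot be told apart. The intervals are numbered, with no positions, genes or sequences in the table used here, so the regions are named by number and no markers of a population could be read from them.

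The values that chose the regions are given as a description. Over the 3047 regions the NFIAp minus NFIAn difference in p2 had a median of -1.19 on the log2 scale, with quartiles of -1.35 and -1.09 and a lowest value of -2.67. In pMN the median was -0.03. Median normalised reads over the regions were 30.1 and 35.6 in the NFIAp p2 libraries used, and 70.8, 91.2 and 96.8 in the NFIAn p2 libraries. In pMN they were 27.1, 34.9 and 38.8 in NFIAp libraries and 26.5 and 40.9 in NFIAn libraries. The NFIAp p2 libraries lay within the range of both pMN fractions, and all NFIAn p2 libraries stood above that range. In all, 4760 intervals had a p2 difference of -1 or less, and the 3047 regions are 64.0% of them.

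**Figure D1:**
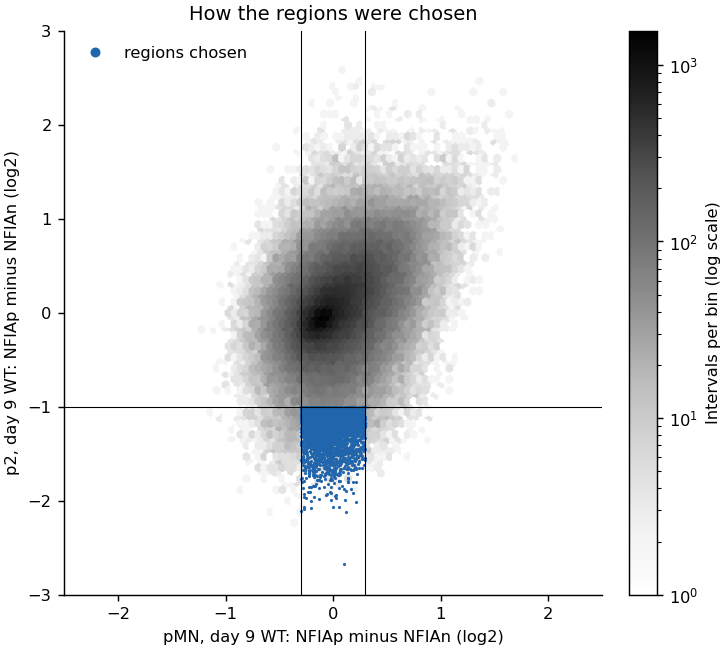
Choice of the regions from WT day 9 libraries. Each point of the grey map is a bin of intervals by the NFIAp minus NFIAn difference of group means of log2(value + 5) in pMN (horizontal axis) and in p2 (vertical axis), shaded by the number of intervals on a log scale, and the 3047 chosen regions are blue. Thin lines mark the limits of -1 in p2 and 0.3 to either side of 0 in pMN, and the regions fill the lower middle of a continuous cloud.

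The limits cut through a continuous distribution. Interval_61898 lies just inside the p2 limit at -1.0002, and Interval_21260 just outside it at -0.9999. Interval_42618 lies just inside the pMN limit at -0.2999 and Interval_186 just outside it at -0.3001. The pMN limit does not show that a region was unchanged there: over the regions, the 95% interval of the pMN difference from the limma fit reached a median of 0.56 to either side. The choice rests partly on single libraries. Without WT day 9 NFIAn pMN replicate 1 the rule finds 1915 intervals, of which 1551 are among the 3047. Without replicate 2 of that group it finds 2496, of which 1825 are among them. Without NFIAp p2 replicate 1 it finds 3248 and keeps 2139, and without NFIAp p2 replicate 3 it finds 4381 and keeps 2650. Without each of the other libraries of the rule, 79.8% to 98.0% of the 3047 were kept.

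The left-out NFIAp p2 library can be set only beside NFIAn p2 libraries that the rule did use, which the regions were selected to be high in, so its values are a description and support nothing. Over the regions it lay at a median of -0.95 on the log2 scale from the NFIAn p2 mean, against 0.01 over all intervals tested. It was below every NFIAn p2 library in 2531 regions, 83.1%, against 31.6% of all intervals tested. At the median region the mean of the NFIAp p2 libraries used lay at -0.11 from the NFIAp pMN mean. The left-out library was 0.18 above that pMN mean, so both were near the pMN level. In some regions this library had the level of pMN: Interval_135816 had 274 normalised reads in it, against 25.4 and 16.9 in the other NFIAp p2 libraries and 183, 221 and 302 in NFIAp pMN. Interval_152633 had 15.6 in it, against 47.0 and 68.4 in the other NFIAp p2 libraries and 16.5, 8.46 and 14.3 in NFIAp pMN. With this library included the rule finds 2590 intervals, which hold 66.1% of the 3047.

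Interval_123167 had the lowest difference of all the regions. It had 4.70 and 28.1 normalised reads in the NFIAp p2 libraries used and 80.1, 126 and 128 in NFIAn p2 libraries, a difference of -2.67. In pMN it had 3.88, 13.7 and 9.18 in NFIAp libraries and 5.29 and 9.97 in NFIAn libraries. All pMN libraries of both fractions lay below all NFIAn p2 libraries there. Interval_90552 stands near the median difference, with 120 and 105 in NFIAp p2 libraries and 254, 304 and 242 in NFIAn p2 libraries. In pMN it had 91.1, 121 and 102 in NFIAp libraries and 110 and 119 in NFIAn libraries, so NFIAp p2 overlapped with both pMN fractions and NFIAn p2 lay above them.

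Over the other libraries the median level of these regions was highest on day 9 in MUT p2 and on day 5 in pMN of both genotypes. In MUT p2, where all cells are NFIAn, the median over the regions was 27.2 ± 2.43, 68.5 ± 11.0, 105.6 ± 23.0 and 52.9 ± 8.63 normalised reads on days 5, 7, 9 and 11 (SD of library medians, n = 3, 3, 2 and 3). In WT p2 it was 28.7 ± 2.18 and 65.5 ± 5.97 on days 5 and 7, both NFIAn, and 36.0 ± 3.32 on day 11, NFIAp (n = 2, 3 and 3). In MUT pMN it was 58.7, 52.9, 52.1 and 25.7 on days 5, 7, 9 and 11, and in WT pMN 58.4, 49.0 and 20.3 on days 5, 7 and 11. The p0-p1 level was the lowest of the populations on day 5 and, as in MUT p2, was highest on day 9. On days 5, 7, 9 and 11 it was 14.4, 38.0, 62.0 and 49.3 in MUT. In WT p0-p1 it was 14.7, 35.4, 46.55 and 36.4, NFIAp on day 11 only. In MUT p0-p1 the highest group mean was on day 9 in 1578 regions (51.8%), against 14.1% of all intervals. Of the 3047 regions, 2400 (78.8%) had their highest MUT p2 group mean on day 9, against 17.8% of all intervals, and in MUT pMN the highest group mean was on day 5 in 1310 (43.0%), on day 7 in 736 (24.2%) and on day 9 in 860 (28.2%), against 31.6%, 19.8% and 12.9% of all intervals.

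**Figure D2:**
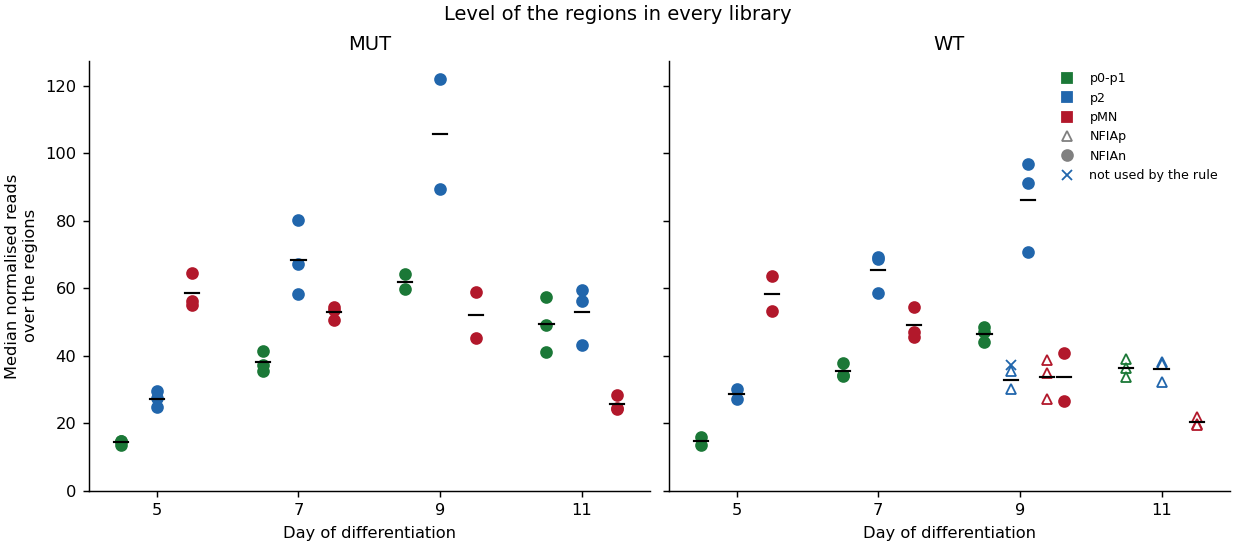
Level of the regions in each of the 71 libraries. Each point is the median of normalised reads over the 3047 regions in 1 library, by day of differentiation, genotype panel, population (colour) and NFIA fraction (open triangles NFIAp, filled circles NFIAn), with black bars at group means. MUT p2 reaches 105.6 on day 9, when WT p2 is at 32.8 in the NFIAp and 86.2 in the NFIAn fraction, and the cross is the library that the rule left out.

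Many of the regions opened in p2 between days 5 and 7. In MUT p2, 1634 regions (53.6%) were higher and 20 lower on day 7 than on day 5, against 9.72% higher and 6.13% lower of all intervals tested. Calls come from a limma fit of all 26 groups and needed a log2 change of at least 1 with an adjusted p (Benjamini-Hochberg, over all intervals tested) under 0.05. In WT p2, 1412 regions (46.3%) were higher and 30 (0.985%) lower, against 9.59% higher and 5.49% lower of all intervals, and the median change was 0.93 over the regions and -0.01 over all intervals. The MUT and WT calls, which share no library, had 1287 higher regions in common, 78.8% of the MUT list and 91.1% of the WT list, and over all intervals such shares were 74.7% and 75.7%. In WT p0-p1, 1359 regions (44.6%) were higher on day 7 and 20 lower, against 9.95% and 4.89% of all intervals.

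Interval_80188 was among the largest of these rises. It had 349, 428 and 451 normalised reads in MUT p2 on day 7 and 22.6, 43.2 and 38.3 on day 5. In WT p2 it had 503, 380 and 354 on day 7 and 44.2 and 15.2 on day 5, and it rose by 3.71 ± 0.23 on the log2 scale (SE, adjusted p = 1.03e-20). All day 7 libraries lay above all day 5 libraries in both genotypes. The level in MUT p2 was 753 and 1072 on day 9, and 474, 455 and 418 on day 11, when WT p2 had 304, 326 and 293. Interval_39715 rose by 3.80 ± 0.23 in WT p2 between the same days (adjusted p = 1.72e-21). Interval_17815 and Interval_68398 were lower on day 7, with changes of -2.63 ± 0.25 (adjusted p = 1.56e-13) and -1.59 ± 0.25 (adjusted p = 8.88e-07).

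In WT pMN over the same days, falls were more frequent than rises. There, 327 regions (10.7%) were higher and 497 (16.3%) lower on day 7 than on day 5, against 8.53% higher and 6.91% lower of all intervals, with a median change of -0.15. Without the library labelled WT D7 pMN replicate 3, these counts were 307 higher and 564 lower. The test of the difference, the p2 change minus the pMN change, was positive in 1238 regions (40.6%) and negative in 1, against 3.36% and 0.37% of all intervals, with a median of 1.06. Without the library labelled WT D7 pMN replicate 3 it was positive in 1260 and negative in 2, and without WT D5 pMN replicate 1 it was positive in 750.

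Interval_145036 had the largest such difference among regions at or above the median level. Its values were 136, 116 and 130 normalised reads in WT p2 on day 7 and 63.9 and 77.1 on day 5, while WT pMN had 19.5, 36.0 and 12.0 on day 7 and 218 and 215 on day 5. The p2 change exceeded the pMN change by 3.92 ± 0.42 (adjusted p = 1.71e-09). Between p2 and pMN the order turned within those days, p2 being above pMN on day 7 and below it on day 5, with no overlap of libraries on either day. Interval_137365 is one of the 6 regions at or above the median level with the lowest NFIAp minus NFIAn difference in p2. It had 21.8, 32.9 and 30.5 in WT pMN on day 7 and 435 and 341 on day 5, and fell by 3.56 on the log2 scale (SE 0.26, adjusted p = 1.42e-17). Its WT p2 level was 72.5, 101 and 125 on day 7 and 96.5 and 102 on day 5, which differed by -0.03 ± 0.27 (adjusted p = 0.951).

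On day 5 nearly all regions called between p2 and pMN were lower in p2. In MUT, 1255 of them (41.2%) were lower in p2 than in pMN and 6 higher, against 6.12% lower and 0.879% higher of all intervals tested. In WT, 1142 (37.5%) were lower in p2 than in pMN and 11 (0.361%) higher, against 5.54% and 1.19% of all intervals, with a median difference of -0.77 over the regions and 0.04 over all intervals. The lists share no library and had 1002 regions in common, 79.8% of the MUT list and 87.7% of the WT list, and 70.3% and 77.7% over all intervals. Of the 3 populations, pMN had the highest group mean in 2660 regions (87.3%) in MUT and 2583 (84.8%) in WT, against 34.5% and 34.2% of all intervals. Without WT D5 pMN replicate 1, 682 regions were lower in WT p2 than in WT pMN.

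Interval_62185 shows the early pMN level. On day 5 it had 19.3, 11.4 and 18.2 normalised reads in MUT p2 and 120, 112 and 112 in MUT pMN, a p2 minus pMN difference of -2.51 ± 0.27 (adjusted p = 3.27e-11). In WT on that day it had 10.5 and 5.43 in p2 and 146 and 128 in pMN, a difference of -3.48 ± 0.32 (adjusted p = 9.26e-12). On day 9 the MUT levels were 101 and 137 in p2 and 104 and 154 in pMN, with a difference of -0.10 ± 0.33 (adjusted p = 0.94). In this region the MUT p2 and pMN libraries overlapped on day 9 and did not on day 5. The 11 exceptions include Interval_41326, with 991 and 881 in WT p2 and 297 and 415 in WT pMN on day 5, a difference of 1.40 ± 0.29 (adjusted p = 0.00043). That region was widely open on day 5, with 1327 and 1276 in WT p0-p1, and had 19.9 to 25.5 in WT p2 on day 11.

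On day 7 more of the regions were higher in p2 than lower. In WT, 539 regions (17.7%) were higher in p2 than in pMN and 72 (2.36%) lower, against 1.98% higher and 2.41% lower of all intervals, with a median difference of 0.31. Without the library labelled WT D7 pMN replicate 3 these were 596 higher and 62 lower. On day 9 the WT libraries of both populations were used by the rule, but MUT libraries were not. In MUT on day 9, 1218 regions (40.0%) were higher in p2 than in pMN and 11 lower, against 3.99% and 1.39% of all intervals, with a median difference of 0.86 over the regions and 0.00 over all intervals. This count was 593 without MUT D9 p2 replicate 2 and 699 without MUT D9 pMN replicate 1. Of the 1218 regions higher in MUT p2 on day 9, 504 (41.4%) were also higher in WT p2 on day 7, 93.5% of the WT list, and over all intervals these shares were 32.5% and 65.6%.

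On day 11 the regions called were again mostly higher in p2. In MUT, 987 regions (32.4%) were higher in p2 than in pMN and 3 lower, against 2.88% and 0.662% of all intervals, with a median of 0.73. In WT, where both populations were NFIAp by then, 564 regions (18.5%) were higher in p2 than in pMN and 23 (0.755%) lower, against 2.19% and 1.77% of all intervals, with a median of 0.49. These lists had 489 regions in common, 49.5% of the MUT list and 86.7% of the WT list, and over all intervals these shares were 44.6% and 58.6%. A higher count in MUT than in WT is not a test of the difference between the genotypes in this contrast, which was not tested.

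**Figure D3:**
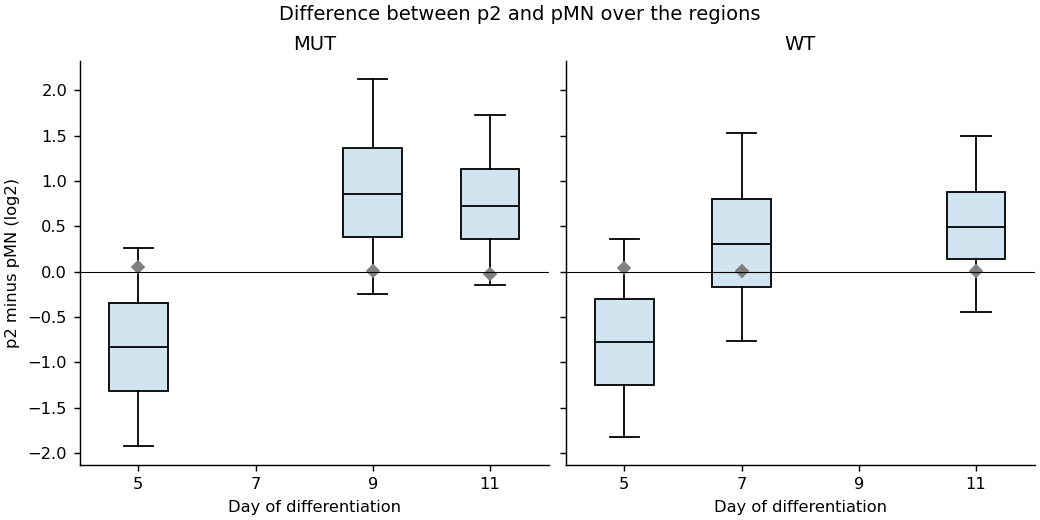
Difference between p2 and pMN over the 3047 regions in comparisons outside the rule. Boxes show the quartiles and median over the regions of the p2 minus pMN difference of group means of log2(value + 5), whiskers the 5th and 95th percentiles, and grey diamonds the median over all intervals tested, by day in MUT (left) and WT (right). The median is -0.83 in MUT and -0.77 in WT on day 5 and above 0 on every later day drawn, 0.86 and 0.73 in MUT on days 9 and 11 and 0.31 and 0.49 in WT on days 7 and 11.

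Some regions were lower in p2 than in pMN in WT on day 5 and higher in p2 than in pMN in MUT on day 9. Of the 1218 regions higher in MUT p2 than in MUT pMN on day 9, 291 (23.9%) were lower in WT p2 than in WT pMN on day 5. They are 25.5% of the 1142 lower on day 5, and over all intervals these shares were 12.8% and 9.22%. Of all 3047 regions, 37.5% were lower on day 5 and 40.0% higher on day 9, so each share within the other list was smaller. In those 1142 regions the median of the group mean of log2(value + 5) was 7.19 in MUT p2 and 6.56 in MUT pMN on day 9. In the 1894 regions without a call on day 5 it was 6.50 in MUT p2 and 5.30 in MUT pMN. The 1142 regions had a median level of 69.2 normalised reads over all libraries, against 38.7 in the 1894, and the part of this level in the counts was not tested.

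Among regions at or above the median level without overlap of libraries, Interval_152633 had the largest p2 bias in MUT on day 9. It had 116 and 170 normalised reads in MUT p2 and 7.89 and 10.5 in MUT pMN, a difference of 3.36 ± 0.30 (adjusted p = 2.72e-12). In WT on day 7 it had 82.3, 82.4 and 84.0 in p2 and 18.4, 12.7 and 22.9 in pMN, a difference of 1.96 ± 0.25 (adjusted p = 1.65e-08). On day 5 the WT values were 52.3 and 44.5 in p2 and 61.6 and 63.6 in pMN, which differed by -0.34 ± 0.30 (adjusted p = 0.605). Interval_123167, the region with the lowest NFIAp level relative to NFIAn in p2, had 133 and 200 in MUT p2 and 9.86 and 15.8 in MUT pMN on day 9, a difference of 3.26 ± 0.37 (adjusted p = 2.01e-09). Interval_140035 had 166 and 296 in MUT p2 and 20.7 and 24.6 in MUT pMN on day 9, and on day 5 no library of any population had more than 10.3 normalised reads. Interval_135816 was an exception, with 53.2 and 48.4 in MUT p2 and 211 and 340 in MUT pMN on day 9, a difference of -2.29 ± 0.31 (adjusted p = 2.56e-07).

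Against p0-p1, all regions called by limma on day 7 were higher in p2. In WT on that day, 834 regions (27.4%) were higher in p2 than in p0-p1 and 0 (0.0%) lower, against 1.96% higher and 0.929% lower of all intervals, with a median of 0.74. In the limma fit, 26 regions were lower at an unadjusted p under 0.05, and edgeR called 4 lower. In WT on day 11, 104 regions (3.41%) were higher in p2 than in p0-p1 and 150 (4.92%) lower, against 4.88% and 5.95% of all intervals, with a median of -0.07. Both shares on day 11 are below those of all intervals, and without WT D11 p2 NFIAp replicate 3 there were 147 higher and 139 lower. Interval_14470 had the largest difference on day 7 among regions at or above the median level without overlap of libraries, 2.57 ± 0.29 (adjusted p = 1.36e-09). Interval_26641 was low in p2 on day 11, with 96.3, 106 and 105 normalised reads there, against 549, 534 and 435 in p0-p1 and 381, 315 and 296 in pMN of WT, and its p2 minus p0-p1 difference was -2.24 ± 0.22 (adjusted p = 7.92e-13).

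Between days 7 and 11 many of the regions closed in p2, and in pMN as well. In WT p2, 1151 regions (37.8%) were lower and 88 (2.89%) higher on day 11 than on day 7, against 16.7% lower and 21.6% higher of all intervals, with a median change of -0.71 over the regions and 0.00 over all intervals. In WT pMN, 1431 regions (47.0%) were lower and 104 (3.41%) higher, against 18.9% and 22.1% of all intervals, with a median of -0.92. Without the library labelled WT D7 pMN replicate 3 the pMN counts were 1362 lower and 121 higher. The p2 and pMN lists share no library and had 979 regions in common, 85.1% of the p2 list and 68.4% of the pMN list, while over all intervals those shares were 80.0% and 70.6%. A label of lower in p2 only holds for the day 9 fractions that chose the regions and not for the course from day 7 to day 11. The WT day 9 NFIAn pMN libraries already lay at a median of -0.37 from WT day 7 pMN over the regions, against -0.01 over all intervals. They belong to the rule, and this value is a description.

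The test of the difference between the populations was called in few regions, but in a larger share of them than of all intervals. The p2 change from day 7 to day 11 minus the pMN change was positive in 196 regions (6.43%) and negative in 62 (2.03%), against 2.11% and 1.29% of all intervals, with a median of 0.19. Without the library labelled WT D7 pMN replicate 3 these were 151 and 59. Interval_85510 was among the largest negative differences. It had 59.0, 47.0 and 32.1 normalised reads in WT p2 on day 11 and 121, 129 and 131 on day 7, while WT pMN had 227, 180 and 171 on day 11 and 76.9, 98.6 and 142 on day 7. The p2 change minus the pMN change was -2.28 ± 0.27 (adjusted p = 9.56e-08). Interval_83766 had the largest positive difference among regions at or above the median level, 2.43 ± 0.41 (adjusted p = 6.20e-05).

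Among regions at or above the median level without overlap of libraries, Interval_133404 closed most in both populations. It had 4.34, 7.31 and 4.94 normalised reads in WT p2 on day 11 and 782, 735 and 932 on day 7, and fell by 6.29 on the log2 scale (SE 0.29, adjusted p = 5.53e-28). In WT pMN it had 2.83, 6.22 and 4.64 on day 11 and 814, 799 and 1053 on day 7, and fell by 6.55 (SE 0.29, adjusted p = 3.46e-29). In WT p0-p1 it had 12.7, 8.90 and 3.63 on day 11 and 494, 574 and 616 on day 7, a change of -5.46 ± 0.29 (adjusted p = 5.28e-25). This region was open in every population on day 7 and at most at 12.7 in any WT library on day 11, and on day 9 it was at 116 to 290 in NFIAn p2 and at 21.2 and 103 in NFIAn pMN. Interval_150963 followed in WT p2, with 11.3, 5.22 and 6.59 in WT p2 on day 11 and 356, 297 and 364 on day 7, a change of -4.78 ± 0.29 (adjusted p = 7.26e-23).

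Interval_27526 was one of the 88 regions that rose in WT p2. It had 180, 147 and 119 normalised reads on day 11 and 21.7, 23.1 and 23.2 on day 7, a rise of 2.45 ± 0.31 (adjusted p = 3.56e-10). In WT pMN it had 139, 113 and 109 on day 11 and 20.7, 11.7 and 2.18 on day 7, a rise of 3.10 ± 0.31 (adjusted p = 1.19e-13). In WT p2 on day 9 the NFIAp libraries used had 30.1 and 41.2, against 79.2, 78.0 and 76.6 in NFIAn libraries, so the region was lower in NFIAp p2 on day 9 and higher in NFIAp p2 on day 11 than in either day 9 fraction.

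In p0-p1 the regions took no common direction between days 7 and 11. In WT, 465 regions (15.3%) were lower and 533 (17.5%) higher on day 11, against 14.8% and 22.1% of all intervals, with a median of 0.11, and under quantile normalization there were 623 lower and 371 higher. Between days 7 and 9, within the NFIAn fraction, 386 regions (12.7%) were higher in WT p0-p1 and 74 (2.43%) lower on day 9, against 5.5% and 5.27% of all intervals, with a median of 0.38. Of the regions at or above the median level without overlap of libraries, Interval_74243 rose most, by 2.73 ± 0.25 (adjusted p = 8.94e-14). Interval_107641 had the largest fall among them, -2.38 ± 0.26 (adjusted p = 4.28e-11). Group means of WT p0-p1 were highest on day 9 in 1339 regions (43.9%), against 13.2% of all intervals.

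MUT p2 cells were NFIAn on every day, so their time course holds no change of fraction and is that of MUT only. On day 9, 675 regions (22.2%) were higher and 53 (1.74%) lower than on day 7, against 5.55% and 5.46% of all intervals, with a median of 0.59, and without MUT D9 p2 replicate 2 these were 367 and 93. On day 11, 1177 regions (38.6%) were lower than on day 9 and 1 was higher, against 6.31% lower and 9.17% higher of all intervals, with a median of -0.85. Without MUT D9 p2 replicate 2, 667 were lower. On day 11 against day 7, 675 regions (22.2%) were lower and 202 (6.63%) higher, against 13.6% and 16.7% of all intervals, with a median of -0.27. These comparisons share the MUT day 7, 9 or 11 libraries with each other.

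Interval_150963 had 11.1, 14.3 and 11.0 normalised reads in MUT p2 on day 11 and 151 and 328 on day 9, and fell by 3.74 on the log2 scale (SE 0.32, adjusted p = 2.93e-14). Interval_43005 fell by 3.54 between the same days (SE 0.29, adjusted p = 7.58e-15). Interval_140035 had 166 and 296 in MUT p2 on day 9 and 26.3, 25.8 and 44.9 on day 7, a rise of 2.64 ± 0.37 (adjusted p = 1.03e-07). Both day 9 libraries lay above all 3 day 7 libraries. The 1 region higher on day 11 than on day 9 stands against 1177 that were lower, although 9.17% of all intervals were higher.

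The lower lists of MUT p2 (day 11 against day 9) and WT p2 (day 11 against day 7) share no library. They had 854 regions in common, 72.6% of the MUT list and 74.2% of the WT list. Over all intervals the shares were 81.1% and 30.6%. Of the 675 regions lower in MUT p2 on day 11 than on day 7, 634 (93.9%) were also lower in WT p2, 55.1% of the WT list, and over all intervals these shares were 82.5% and 67.2%.

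Between MUT and WT p2 on day 7 few regions were called. In MUT p2, 2 regions (0.0656%) were higher and 1 (0.0328%) lower than in WT p2, both NFIAn, against 0.185% and 0.061% of all intervals, with a median difference of 0.04. On day 9 the MUT p2 mean lay at a median of 1.47 above WT NFIAp p2 and 0.23 above WT NFIAn p2, against -0.01 and 0.07 over all intervals. The regions were selected on these WT libraries, which puts NFIAp below NFIAn, and these values carry no test. In p0-p1, which the rule did not use, 31 regions (1.02%) were higher and 1 lower in MUT than in WT on day 9, within NFIAn, against 0.326% and 0.181% of all intervals. The number higher was 0 without MUT D9 p0-p1 replicate 1, 2 without MUT replicate 2, 7 without WT replicate 1 and 18 without WT replicate 3. In the same order the median difference over the regions was 0.37, 0.293, 0.305 and 0.327, against 0.326 with these libraries kept. The p0-p1 count thus moved with single libraries while the median difference moved little, and why was not tested.

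On day 11, 254 regions (8.34%) were higher in MUT p2, NFIAn, than in WT p2, NFIAp, and 7 (0.23%) were lower, against 2.54% higher and 7.85% lower of all intervals. The median difference was 0.48 over the regions and 0.04 over all intervals, and 2689 regions lay above 0. Without MUT D11 p2 replicate 3, 460 were higher. The change from day 7 to day 11 in MUT minus that in WT was positive in 202 regions (6.63%) and negative in 7 (0.23%), against 1.78% and 7.57% of all intervals, with a median of 0.45. Leaving out a library moved the positive count to 329 (without MUT D11 p2 replicate 3), 110 (without MUT D11 p2 replicate 1), 125 (without MUT D11 p2 replicate 2), 122 (without MUT D7 p2 replicate 1) or 131 (without WT D7 p2 replicate 1). Genotype and NFIA fraction cannot be told apart in either test.

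Interval_70326 had one of the largest differences on day 11. It had 197, 196 and 151 normalised reads in MUT p2 and 46.0, 62.6 and 35.4 in WT p2, and was higher in MUT by 1.84 ± 0.23 (adjusted p = 1.86e-09). On day 7 it had 88.0, 102 and 104 in MUT p2 and 108, 86.8 and 87.3 in WT p2, which overlapped. The difference of the changes was 1.78 ± 0.33 (adjusted p = 3.61e-05). Interval_133404 had 31.2, 33.4 and 34.9 in MUT p2 and 4.34, 7.31 and 4.94 in WT p2 on day 11, and was higher in MUT by 1.87 ± 0.29 (adjusted p = 5.43e-07), while both genotypes were far below their day 7 levels of 801 to 998 in MUT and 735 to 932 in WT. Interval_82046 and Interval_135509 were lower in MUT, with -1.16 ± 0.19 (adjusted p = 2.37e-06) and -1.33 ± 0.29 (adjusted p = 0.000212).

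**Figure D4:**
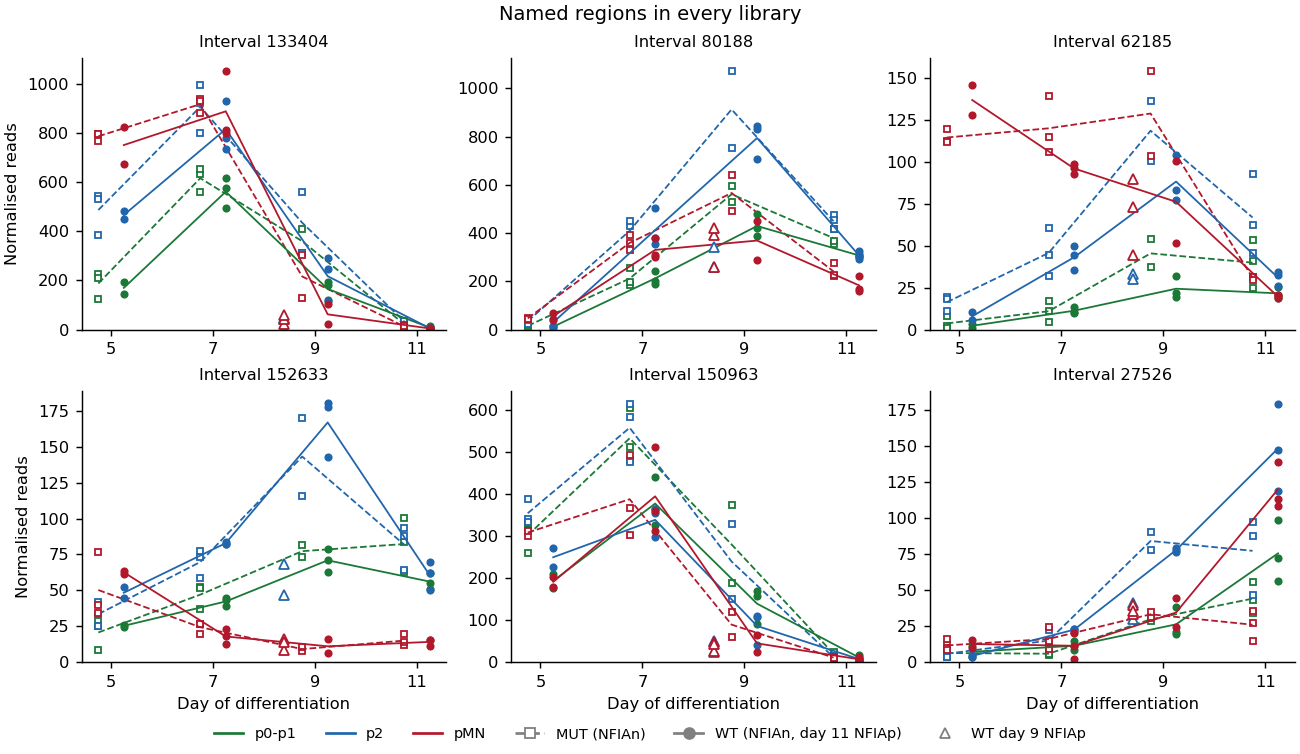
Normalised reads of 6 named regions in every library except the one left out. Each point is 1 library by day of differentiation and population (colour), with open squares and dashed lines of group means for MUT, filled circles and solid lines for WT, NFIAn up to day 9 and NFIAp on day 11, and open triangles for WT day 9 NFIAp. Interval_133404 and Interval_150963 are lower in all populations on day 11 than on day 7, Interval_62185 is higher in pMN than in p2 on day 5, Interval_152633 is higher in p2 than in pMN on day 9 in MUT, and Interval_27526 reaches 119 to 180 in WT p2 on day 11.

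The 1174 intervals lower in NFIAp than in NFIAn in both p2 and pMN were split off from these regions by the pMN value of the same rule. Of the 3047 regions, 37.8% were lower in WT p2 on day 11 than on day 7 and 47.0% in WT pMN, against 65.2% and 77.9% of the 1174. On day 5, 37.5% of the regions and 37.8% of the 1174 were lower in WT p2 than in WT pMN. The 539 intervals lower in NFIAp p2 and higher in NFIAp pMN were lower in WT p2 on day 11 in 18.0% of cases. The rise in p2 and the p2 bias were not particular to the regions. From day 5 to day 7, 46.3% of the regions rose in WT p2, against 36.7% of the 1174 and 61.2% of the 539. In MUT on day 9, 40.0% of the regions were higher in p2 than in pMN, against 29.6% and 62.5%. In WT on day 7 these shares were 17.7%, 9.2% and 34.0%. These shares are a description, and no difference between the sets was tested.

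Most of the regions had no other region next to them in the numbering of the intervals. They formed 2909 runs of consecutive numbers, of which 2781 were single intervals and 119 were pairs, and 266 regions lay in runs of at least 2. Whether this is more than their frequency among all intervals gives was not tested. The longest run was Interval_25003 to Interval_25006, with 4 regions and p2 differences of -1.14, -1.28, -1.54 and -1.57. Whether consecutive numbers are neighbours in the genome is not known from the table. In level, the regions spanned 3.11 to 1774 normalised reads, and 1963 of the 3047 lay at or above the median of all intervals. All 3047 passed the filter on low values, also when only the 60 libraries outside the rule were counted.

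**Figure D5:**
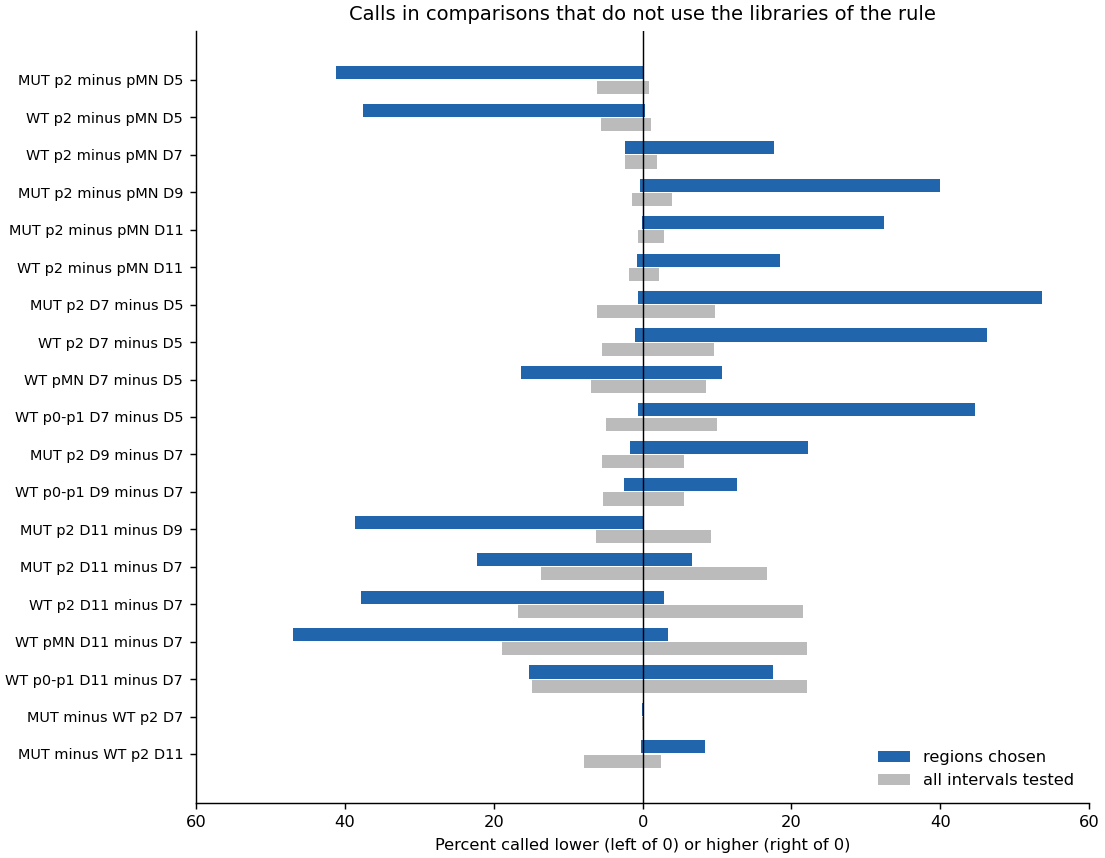
Percent of regions called in comparisons outside the rule. Not drawn are p2 against p0-p1 in WT, MUT against WT p0-p1 on day 9 and the tests of a difference of changes. Bars show the percent called lower (left of 0) and higher (right of 0) in the 3047 regions (blue) and in all intervals tested (grey), called at an adjusted p under 0.05 and a log2 change of at least 1. In p2 against pMN the blue bars point left on day 5, at 41.2% in MUT and 37.5% in WT, and right on all later days drawn.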

How the data were processed

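The authors deposited 1 table of signal values, read counts per consensus interval divided by a size factor per library, for 71 ATAC-seq libraries. The build was mm10 per the labels, and for the aligner, peak caller and counter: not given in the sources used here. Dividing each column by its step returned whole reads within 0.01 for 100% of values. The table numbers its intervals without positions. Groups follow the titles. WT day 9 NFIAp p2 replicate 2 was left out, as the rule states.

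Group means of log2(value + 5) were fitted with limma 3.58.1 (R 4.3.3) to 70 libraries in 26 groups with a mean-variance trend. The test kept the 155733 intervals that reached a value of 10 in 2 or more libraries. Calls needed a Benjamini-Hochberg adjusted p under 0.05 and a log2 change of at least 1. The members, the comparisons and the rules for named regions were chosen with earlier results of these data known. Of 25 comparisons, 9 were added after these data were seen: all those of day 5 except WT p2 day 7 against day 5, p2 against pMN in MUT on day 11, MUT p2 day 11 against day 9, and MUT against WT p0-p1 on day 9. Regions named are those lowest in NFIAp p2, those nearest the median, and up to 2 lower and 2 higher per comparison with the largest change, at or above the median level and without overlap of libraries, besides those next to the limits and the longest run. Other settings were pseudocounts of 1 and 20, no filter, a mean value of at least 30, equal library totals, quantile normalization, a fit of the groups compared, a replicate block, edgeR 4.0.16 on the recovered reads and leaving out each library. The fit was tested on simulated data. Reads are not all independent molecules, so depth covers counting error only. Same-numbered libraries were compared by the correlation of their deviations from group means: it was over 0.1 for all 3 pairs in p2 against pMN in MUT on day 5 and in WT on day 7, p2 against p0-p1 in WT on day 7, and MUT against WT p2 on day 7. Comparisons with only 2 such pairs were left out of this list whatever the correlation. In p2 against pMN it was 0.34 in MUT on day 9 and 0.20 in WT on day 5. In MUT p2, day 9 against day 7, it was 0.17 and -0.02. Figures were drawn with matplotlib 3.10.9.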

Additional observations from a re-analysis of the deposited data

Results flagged for a closer look

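The change from day 5 to day 7 in WT differed between p2 and pMN in 1239 regions by the test of the difference in the limma fit. In 1238 of them the p2 change minus the pMN change was positive, which a fall in pMN also gives. The change from day 7 to day 11 in WT differed between p2 and pMN in 258 regions. The change in p2 from day 7 to day 11 differed between MUT and WT in 209 regions, where genotype and NFIA fraction cannot be told apart.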

How the results depend on the processing

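Counts below are regions called lower plus higher. Of 284 values under other settings 241 stayed within 1.5 times, 42 moved further and 1 turned; of 166 values without 1 library 145 stayed within 1.5 times. Of 1532 values of named regions 1509 kept their call, 23 lost it and 0 turned. Most moves came with a pseudocount of 20, which shrinks changes by construction.

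With a pseudocount of 20 the rule finds 1488 regions. The day 7 minus day 5 counts were 1000 in MUT p2, 862 in WT p2, 690 in WT p0-p1 and 464 in WT pMN. Day 11 minus day 7 gave 546 in MUT p2, 795 in WT p2, 978 in WT pMN, 567 in WT p0-p1, 151 for p2 minus pMN and 55 for MUT minus WT. The p2 minus pMN counts were 788 in MUT and 730 in WT on day 5, 280 in WT on day 7, and 461 in MUT and 219 in WT on day 11. Against p0-p1, WT p2 gave 366 on day 7 and 93 on day 11. MUT p2 gave 417 for day 9 minus day 7 and 684 for day 11 minus day 9, WT p0-p1 196 for day 9 minus day 7, and MUT minus WT 52 in p2 on day 11, 0 in p2 on day 7 and 7 in p0-p1 on day 9.

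With a mean value of at least 30, which tests fewer regions, the rule finds 2025, and counts were 391 for WT p2 minus pMN on day 7, 775 for MUT p2 minus pMN on day 9, 460 and 577 for MUT p2 on days 9 and 11 minus day 7, 128 for the difference of changes between MUT and WT, and 0 for MUT minus WT p2 on day 7. Stricter limits gave 359 regions at -1.5 in p2 and 1709 within 0.15 in pMN. Under quantile normalization WT p0-p1 day 11 minus day 7 turned, with 994 calls, and the difference of changes between MUT and WT gave 318. Equal library totals moved the median of all intervals by over 0.1, to 0.15 against 0.01 in that difference (399 calls) and to 0.19 against 0.04 in MUT minus WT p2 on day 11 (510), and gave 53 calls in MUT minus WT p0-p1 on day 9. By edgeR, MUT minus WT p2 gave 485 on day 11 and 5 on day 7, and WT p2 minus p0-p1 on day 11 gave 399. MUT minus WT p2 gave 441 on day 11 with a pseudocount of 1 and 0 on day 7 in a fit of those groups. The causes were not tested.

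With the replicate block, the comparisons correlated over 0.1 in all 3 pairs gave 614 (WT p2 minus pMN on day 7), 837 (WT p2 minus p0-p1 on day 7), 1262 (MUT p2 minus pMN on day 5) and 3 (MUT minus WT p2 on day 7). Among those with 2 pairs, p2 minus pMN gave 1278 in MUT on day 9 and 1185 in WT on day 5. The block moved no count by over 1.5 times in any comparison.

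Leaving out each library in turn, the rule found 1915 to 4381 regions. The p2 minus pMN counts ranged over 687 to 1163 in WT on day 5, 599 to 1389 in MUT on day 9 and 795 to 1227 in MUT on day 11, and that of the day 7 minus day 5 change in WT over 751 to 1262. MUT p2 ranged over 460 to 992 for day 9 minus day 7 and 669 to 1589 for day 11 minus day 9. MUT minus WT ranged over 200 to 464 in p2 on day 11, 1 to 5 in p2 on day 7 (2 and turned without MUT D7 p2 replicate 3), 0 to 27 in p0-p1 on day 9 and 120 to 332 for the difference of changes. WT p2 minus p0-p1 on day 11 ranged over 257 to 286, the last turned, without WT D11 p2 replicate 3. Each other comparison stayed within 1.5 times.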
